A study of Mus musculus with 106 samples.

Results

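In bone marrow-derived macrophages (BMDMs) of diabetic mice, peaks of acetylation of lysine 27 of histone H3 (H3K27ac) were ranked by strength before and after stimulation with LPS+IFN-γ. Of the promoters tested, 15 (0.119%) stood nearer the top of the list after stimulation and 63 (0.5%) further down, and of the distal regions 2 (0.0156%) and 1 (0.0078%). No promoter or region passed a test of whether it carried one of the 20000 strongest peaks of a list. With 6 against 5 libraries the smallest p of that test is 0.00216. The features that reached it were too few to pass the adjustment, so this result decides nothing. No promoter or region was called when peaks were ranked by fold enrichment. The comparison used 11 of the 106 samples of the series, 6 libraries of stimulated and 5 of unstimulated diabetic BMDMs, chosen by their labels alone. C57BL/6J mice aged 12 to 14 weeks had been made diabetic with streptozotocin, a toxin of pancreatic beta cells, at 42 to 45 mg/kg per day for 5 days. Marrow was taken 6 weeks after the last injection from mice with a non-fasted glucose above 13.9 mmol/L. Cells of both groups had spent 7 days in medium with 5 mmol/L glucose and L929-conditioned supernatant, so that unstimulated and stimulated macrophages shared the diabetic history and the normal-glucose culture. Stimulated cells then received 100 ng/mL LPS with 10 ng/mL IFN-γ for 16 hours, and unstimulated cells medium only. The time is that of the study's general BMDM protocol, since its ChIP-seq methods state none. Replicates were individual animals by the study's methods. Whether a stimulated and an unstimulated library of the same number came from the same mouse is not stated there.

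H3K27ac marks active promoters and enhancers, the distant elements that act on promoters. LPS, a cell wall component of Gram-negative bacteria, signals through TLR4 to NF-κB and AP-1 factors, and IFN-γ signals through JAK kinases and the IRF factors. Given together, both drive macrophages to an inflammatory state of which the inducible nitric oxide synthase Nos2 is a classical marker.

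Each library was available as a list of H3K27ac peaks, each with a −log10 p against input chromatin. Such p-values grow with depth, which the lists do not state, and can be compared only within a list. Every list was therefore cut to its 20000 strongest peaks, and a promoter or region was described by the position of its strongest peak, from 1 at the top. A feature with no peak among the top 20000 was given position 20001. Unless whole lists are named, a list below is this cut list, and no peak means none within it. A promoter was the window of 1000 bp to either side of any start site of a protein-coding gene. A distal region was an interval where peaks of at least 2 libraries merged, more than 1000 bp from every annotated start site. Differences are mean log2 positions, unstimulated minus stimulated, ± SE, so that a positive value means nearer the top after LPS+IFN-γ and 1 unit means a position closer by a factor of 2.

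Whole lists held 52470 to 142219 peaks after LPS+IFN-γ (97994 ± 36377, SD, n = 6) and 54313 to 175991 in unstimulated cells (103897 ± 46657, SD, n = 5). The groups did not differ in log2 peak number beyond the spread (difference −0.0579, two-sided exact permutation p = 0.874, where 0.00216 is the smallest that 462 arrangements can give). Promoter peaks made up 62.3% ± 3.41 (SD, n = 6) of the top 20000 after stimulation and 65.5% ± 1.83 (SD, n = 5) before it (exact permutation p = 0.0628). At 40000 peaks a list the gap was −2.51 percentage points, with an exact permutation p of 0.00433. LPS+IFN-γ library 3 stood apart, with 55.67% against 62.07% to 65.02% in the other 5, so results are given with and without it. Among macrophage markers, the promoters of Cd68, Csf1r, Mertk, Cd14, Aif1, Fcgr3 and Lgals3 carried a peak in all 11 whole lists. The promoters of Adgre1, Itgam and Lyz2, which also define macrophages, carried one in 6, 3 and 1 of them and never among the top 20000. Of 10 neutrophil genes, S100a8, S100a9, Retnlg and Ly6g carried none in any whole list, while Prtn3 carried one in all 11, Ltf in 9, Camp in 8, Elane in 7, Mpo in 4 and Ngp in 2. Prtn3 was among the top 20000 in 8 lists and Camp in 1.

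Sequences of the distal regions on which the comparison turns are given first. Each is the 300 bases around the summit on the + strand of GRCm38. Capitals mark a match on either strand to 1 of 7 motifs: IRF (GAAANNGAA), STAT (TTCNNNGAA), NF-κB (GGANTTTCC), AP-1 (TGANTCA), PU.1 (GAGGAAGT), C/EBP (TTGCNNAA) and CREB (TGACGTCA). No match overlapped another in these windows. The first 3 rose or led the rising regions, in an intron of Aldh2, upstream of Ccne1 and across an exon of Ubr4, where 138 of the 300 bases are coding. The next 3 led the falling regions, in Plin1 (279 coding bases and 21 of untranslated sequence), downstream of Lmntd1 and in an intron of Ttll5. The last pair lies upstream of Nos2 and of Acod1, the latter chosen after its values were seen.
Aldh2, chr5:121584247-121584546: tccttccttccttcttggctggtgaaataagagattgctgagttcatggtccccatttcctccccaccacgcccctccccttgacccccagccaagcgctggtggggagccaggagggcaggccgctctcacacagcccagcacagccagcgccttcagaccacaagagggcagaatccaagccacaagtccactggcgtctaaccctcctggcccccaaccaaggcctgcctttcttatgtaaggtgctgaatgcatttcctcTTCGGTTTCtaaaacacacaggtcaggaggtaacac
Ccne1, chr7:38125608-38125907: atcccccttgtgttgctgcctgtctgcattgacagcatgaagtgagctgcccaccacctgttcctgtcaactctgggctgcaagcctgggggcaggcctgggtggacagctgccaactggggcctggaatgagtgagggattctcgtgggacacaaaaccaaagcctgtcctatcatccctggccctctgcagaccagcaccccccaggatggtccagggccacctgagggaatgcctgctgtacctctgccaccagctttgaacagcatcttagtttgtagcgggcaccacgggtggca
Ubr4, chr4:139442588-139442887: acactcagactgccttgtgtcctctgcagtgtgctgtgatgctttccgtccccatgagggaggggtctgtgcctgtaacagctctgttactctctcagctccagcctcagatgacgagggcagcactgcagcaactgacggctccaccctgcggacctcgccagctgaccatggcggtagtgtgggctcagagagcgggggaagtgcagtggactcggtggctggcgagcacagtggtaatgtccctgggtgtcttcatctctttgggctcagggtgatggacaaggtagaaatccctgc
Plin1, chr7:79721403-79721702: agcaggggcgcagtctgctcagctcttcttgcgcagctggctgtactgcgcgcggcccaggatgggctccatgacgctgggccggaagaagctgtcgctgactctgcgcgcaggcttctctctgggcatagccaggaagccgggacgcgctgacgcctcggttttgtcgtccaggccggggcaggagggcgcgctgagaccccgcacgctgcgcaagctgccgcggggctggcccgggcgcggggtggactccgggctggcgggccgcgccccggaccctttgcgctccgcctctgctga
Lmntd1, chr6:145351075-145351374: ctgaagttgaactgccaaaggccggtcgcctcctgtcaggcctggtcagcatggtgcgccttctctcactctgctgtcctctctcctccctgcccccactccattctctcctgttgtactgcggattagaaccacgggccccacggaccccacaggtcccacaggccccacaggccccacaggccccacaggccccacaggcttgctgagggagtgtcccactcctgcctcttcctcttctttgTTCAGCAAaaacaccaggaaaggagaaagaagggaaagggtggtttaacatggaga
Ttll5, chr12:85943560-85943859: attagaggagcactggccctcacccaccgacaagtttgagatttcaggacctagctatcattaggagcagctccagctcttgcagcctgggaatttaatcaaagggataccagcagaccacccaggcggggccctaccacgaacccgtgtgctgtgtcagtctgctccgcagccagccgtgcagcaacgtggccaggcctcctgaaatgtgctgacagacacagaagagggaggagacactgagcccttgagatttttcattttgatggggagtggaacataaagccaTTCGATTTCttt
Nos2, chr11:78917104-78917403: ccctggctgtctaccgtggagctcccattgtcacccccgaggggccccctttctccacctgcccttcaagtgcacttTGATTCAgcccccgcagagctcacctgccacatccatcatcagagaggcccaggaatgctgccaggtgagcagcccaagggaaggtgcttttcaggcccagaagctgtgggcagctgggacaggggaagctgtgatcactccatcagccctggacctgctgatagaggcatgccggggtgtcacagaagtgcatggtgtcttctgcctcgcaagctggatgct
Acod1, chr14:103014880-103015179: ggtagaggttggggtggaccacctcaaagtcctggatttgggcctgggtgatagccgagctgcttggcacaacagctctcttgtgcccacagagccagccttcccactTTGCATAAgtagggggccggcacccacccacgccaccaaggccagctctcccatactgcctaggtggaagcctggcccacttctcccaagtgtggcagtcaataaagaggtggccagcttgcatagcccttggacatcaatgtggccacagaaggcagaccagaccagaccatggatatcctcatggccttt
The Aldh2 and Ttll5 windows hold an IRF match, at bases 265 and 289. The Lmntd1 and Acod1 windows hold a C/EBP match, at bases 245 and 109, and the Nos2 window an AP-1 match at base 78. No letters of the 7 motifs were found in the windows at Ccne1, Ubr4 and Plin1.

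Nos2, the marker of the stimulation, held a promoter peak in all 6 stimulated and 4 of 5 unstimulated lists. Its promoter stood at positions 14308, 8978, 8484, 6336, 4858 and 6230 after LPS+IFN-γ, in the order of libraries 1 to 6, and at 17186, 20001, 10628, 9990 and 11506 in unstimulated libraries 1, 2, 4, 5 and 6. The groups overlapped through stimulated library 1. The difference of 0.79 ± 0.299 did not pass the adjustment over all promoters (limma adjusted p = 0.248, exact permutation p = 0.0368). The groups parted 1.9 kb upstream of the start site, in the intergenic region chr11:78916691-78918861. Its positions were 2811, 3351, 2097, 7016, 5635 and 5379 after stimulation, against 10408, 11391, 10385, 20001 and 20001 before it. Every stimulated library ranked the region above every unstimulated one, by 1.78 ± 0.453 (adjusted p = 0.197, exact permutation p = 0.00216). Without LPS+IFN-γ library 3 the difference was 1.59, with an adjusted p of 0.0111. A further 8 distal regions had Nos2 as the nearest gene, from 4.2 kb upstream to 46 kb upstream and 18.2 kb downstream within an intron. Their differences of 0.16 to 0.91 did not pass (adjusted p of 0.452 to 0.461). Of these 8, 7 were held by no unstimulated library and by 2 to 5 stimulated ones, so they entered the test through the stimulated group alone and could not lie below 0.

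Of 21911 protein-coding promoters, 12612 were held by at least 2 of the 11 libraries and tested, 8271 of them by all 11. A rise of the promoter in the list after LPS+IFN-γ was called for 15 (0.119%) and a fall for 63 (0.5%), by limma at an adjusted p under 0.05. At an unadjusted p under 0.05 there were 648 and 1181. The 63 lower calls rest on 62 distinct peaks, since Ispd and D630036H23Rik share one. Groups did not overlap at 113 promoters that stood higher (0.896%) and 206 that stood lower (1.63%). The median difference over all promoters was −0.0664. Without LPS+IFN-γ library 3, 21 higher (13 of them among the 15) and 28 lower (all among the 63) were called, so that library bears on the balance between the directions. Leaving out each library in turn gave 6 to 21 higher and 19 to 70 lower calls. On linear positions the calls were 13 and 21, and with the replicate number as a block 11 and 25. When peaks were ranked by fold enrichment, no promoter was called in either direction.

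Among promoters that rose, H2-Q6, a nonclassical MHC class I gene, went furthest. It stood at positions 3, 13, 80, 3, 4 and 7 in the stimulated lists and at 3460, 3755, 2089, 195 and 184 in the unstimulated ones. The difference was 6.96 ± 1.46 (adjusted p = 0.0374). H2-Q genes are near-identical copies, so reads may have been placed among them and the value is uncertain. Car13, a cytosolic carbonic anhydrase, stood at 106, 291, 307, 165, 594 and 175 after LPS+IFN-γ and at 2426, 6888, 6359, 3200 and 2097 before, a difference of 3.99 ± 0.655 (adjusted p = 0.0105). The highest unstimulated library lay well below the lowest stimulated one. Rbpms, which encodes an RNA-binding protein, moved from 10746, 10319, 5631, 6988 and 4281 to 1119, 1180, 1787, 587, 407 and 621 (3.09 ± 0.5, adjusted p = 0.00968). Clic5, an intracellular chloride channel gene, moved from 8386 to 20001 in the unstimulated lists to 452 to 3225 in the stimulated ones (2.90 ± 0.485, adjusted p = 0.0105). All 4 kept their calls without library 3.

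Ccl5 encodes a chemokine for T cells and monocytes. Its promoter stood at 7959, 8496, 7716, 11957, 16212 and 12316 in the stimulated lists and in none of the 5 unstimulated ones, and was the one called riser with a peak in all stimulated and no unstimulated lists. The difference was 0.95 ± 0.198 (adjusted p = 0.0374, and 0.0639 without library 3). Below the cut, whole unstimulated lists held a Ccl5 promoter peak in 4 of 5 libraries, at positions 30346 to 67590. The Ccl5 promoter entered the test through the stimulated group alone, so its difference could not lie below 0. Mmp14, a membrane-bound metalloproteinase that cleaves collagen, stood at 1679 to 4682 after and 7562 to 11177 before LPS+IFN-γ (1.72 ± 0.353, adjusted p = 0.0365). F10, coagulation factor X, stood at 3545 to 9819 after stimulation, and in 3 of 5 unstimulated lists it had no peak (1.60 ± 0.266, adjusted p = 0.0105). Tnfsf15, a ligand of the TNF family, stood at 3513 to 8529 after stimulation and had no peak in 3 of 5 unstimulated lists, with the others at 9078 and 19949 (1.57 ± 0.305, adjusted p = 0.0291).

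The others that rose include Trp53, the tumour suppressor p53, at 6509, 10356, 6911, 7175, 8457 and 9147 after LPS+IFN-γ and at 20001, 19053, 20001, 18417 and 16679 before it. Its difference of 1.24 ± 0.191 had the lowest adjusted p among the risers (0.00697). Trp53 shares its start region with Wrap53, and peaks there cannot be assigned to one of them. Rasgrp1, an exchange factor that activates Ras, stood at 6772 to 12745 in all 6 stimulated lists and in 1 of 5 unstimulated ones, at 19817 (1.05 ± 0.19, adjusted p = 0.0167). Cep162, a centriolar protein gene, rose by 1.29 ± 0.223 (adjusted p = 0.0132). Ipp and Gm14295 rose by 1.06 and 1.01. Dab2, an endocytic adaptor gene, passed the test with overlapping groups (1.15 ± 0.245, adjusted p = 0.0419).

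**Figure D1:**
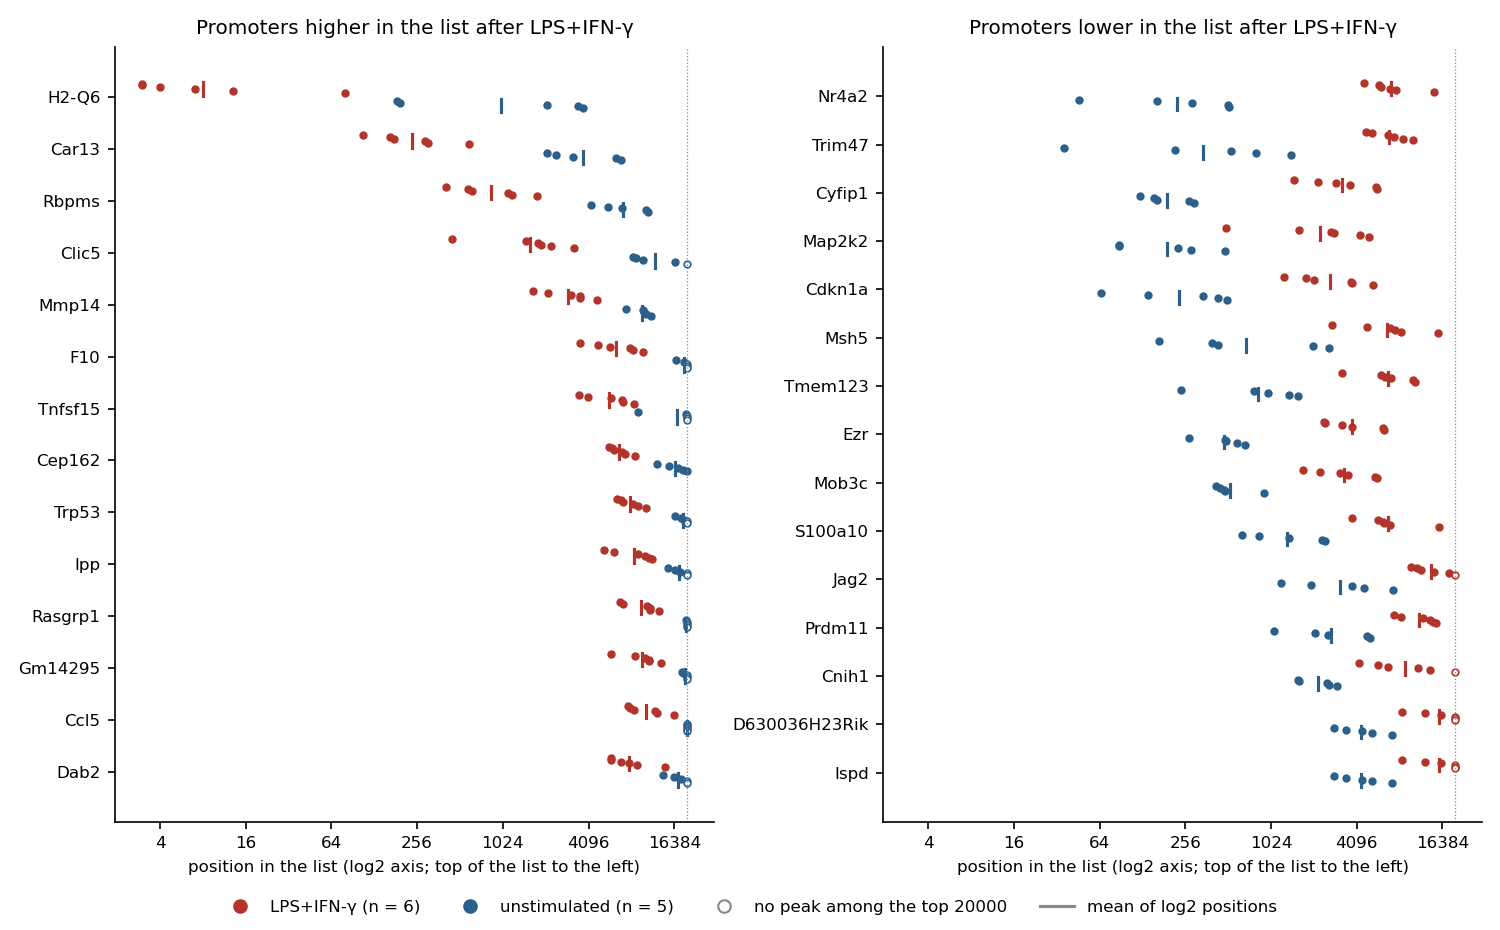
Position in the list (log2 axis, top of the list to the left) of the promoters with the largest differences, risen on the left and fallen on the right, in 6 LPS+IFN-γ (red) and 5 unstimulated (blue) libraries. Each point is a library, open points had no peak among the top 20000 and bars are means of log2 positions. In the left panel the red points lie nearer the top than the blue for every promoter but Dab2, where they overlap, and in the right panel all red points lie further down than the blue. Ispd and D630036H23Rik are the same peak.

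Among promoters that fell, Nr4a2 moved furthest. It encodes an orphan nuclear receptor that is an immediate early gene. Its promoter stood at 508, 287, 521, 162 and 46 in the unstimulated lists, near the very top, and at 7772, 4631, 14375, 5893, 7063 and 6019 after LPS+IFN-γ. The difference was −4.99 ± 0.647 (adjusted p = 0.00412, exact permutation p = 0.00216), and the call held without library 3. The permutation p is the smallest possible and adds no support, since the promoter was named for groups that do not overlap. The 250 bases before its start, chr2:57124004-57124253 on the − strand of GRCm38.p6 (RefSeq), are shown because this promoter changed most among those that fell.
Nr4a2 promoter: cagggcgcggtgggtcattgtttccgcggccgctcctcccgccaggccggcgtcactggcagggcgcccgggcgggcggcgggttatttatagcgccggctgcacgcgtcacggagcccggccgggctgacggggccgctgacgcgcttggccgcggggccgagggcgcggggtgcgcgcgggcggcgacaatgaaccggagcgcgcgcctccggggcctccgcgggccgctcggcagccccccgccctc
The window holds none of the letters searched, which says nothing about the factors.

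Cyfip1, a subunit of the WAVE complex that directs actin branching, moved from 122, 162, 155, 273 and 294 to 1485, 5584, 5677, 3648, 2929 and 2203 (−4.08 ± 0.606, adjusted p = 0.00547). Ezr encodes ezrin, which ties actin to the membrane. It stood at 273 to 672 before and 2406 to 6398 after LPS+IFN-γ (−2.97 ± 0.514, adjusted p = 0.0132). Map2k2, the MAP kinase kinase MEK2, stood at 487, 282, 228, 88 and 88 before and at 4337, 4957, 2820, 498, 1598 and 2706 after (−3.57 ± 0.76, adjusted p = 0.0404). The nearest libraries of the groups stood at 487 and 498, and the adjusted p was 0.0853 without library 3. S100a10, the partner of annexin A2, fell by 2.34 on the log2 scale, and Jag2, a Notch ligand, fell by 2.13 (adjusted p = 0.0374 and 0.0304). Without library 3 neither passed, with adjusted p of 0.0685 for S100a10 and 0.0558 for Jag2.

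Cdkn1a, which encodes the cyclin-dependent kinase inhibitor p21, stood at 431, 141, 65, 338 and 499 in unstimulated lists and at 1796, 1272, 5313, 3718, 3780 and 2065 after stimulation. The groups did not overlap and the difference was −3.52 ± 0.694 (adjusted p = 0.0298, and 0.0685 without library 3). When a peak had to have its summit inside the window, the difference was 0.39, so the direction turns with that rule. Trim47, a ubiquitin ligase gene, fell by 4.34 on the log2 scale and Tmem123 fell by 3.03, each with an adjusted p of 0.0132. Msh5, a meiotic MutS homologue, fell by 3.29 (adjusted p = 0.0374, and 0.0794 without library 3). Mob3c, Prdm11 and Cnih1 had differences of −2.65, −2.07 and −2.02, and each had an adjusted p above 0.05 without library 3. The peak shared by Ispd and D630036H23Rik fell by 1.81 (adjusted p = 0.0132).

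By occupancy, 7 promoters were held by all 6 stimulated and no unstimulated library, and 11 by all 5 unstimulated and no stimulated library. Fisher's exact test called none after adjustment, and 36 higher and 53 lower had an unadjusted p under 0.05. Its smallest p with 6 against 5 libraries is 0.00216. The promoters that reached it were too few to pass the adjustment, so the absence of calls decides nothing. The names in this paragraph were chosen after their values were seen. Gained and lost refer here to the cut lists alone, and a peak below the cut may be present in the whole list. The 7 that were gained are Ccl5, Arg2, Cd200, Lipg, Nmt1, Gm12185 and Gm14327. Arg2 is an arginase that competes with Nos2 for arginine. It stood at 15451, 9773, 5782, 13174, 11718 and 17106 in the stimulated lists and in no unstimulated cut list (0.80 ± 0.227, limma adjusted p = 0.128). Whole unstimulated lists held an Arg2 promoter peak in all 5 libraries, at 24441 to 65228. They held one for Ccl5 in 4 of 5, at 30346 to 67590. Both promoters thus carried the mark before stimulation in these libraries. Cd200 is the ligand of an inhibitory receptor of myeloid cells, and Lipg is endothelial lipase. Of the 11 that were lost, 5 passed the limma test, namely Zbtb16, Acvr2b, Stxbp6, BC016579 and Acot3. Zbtb16, the zinc finger factor PLZF, stood at 6858, 8133, 7394, 8491 and 7934 in the unstimulated lists, a narrow range, and had the lowest adjusted p of all promoters (−1.37 ± 0.154, adjusted p = 0.00121). Its 6 stimulated values are all the assigned 20001, without spread. The promoters gained or lost here entered the limma test through their holding group alone, so the sign of each difference was fixed. Acvr2b, an activin receptor, stood at 4970 to 10794 before and in no cut list after stimulation (−1.34 ± 0.198, adjusted p = 0.00547).

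**Figure D2:**
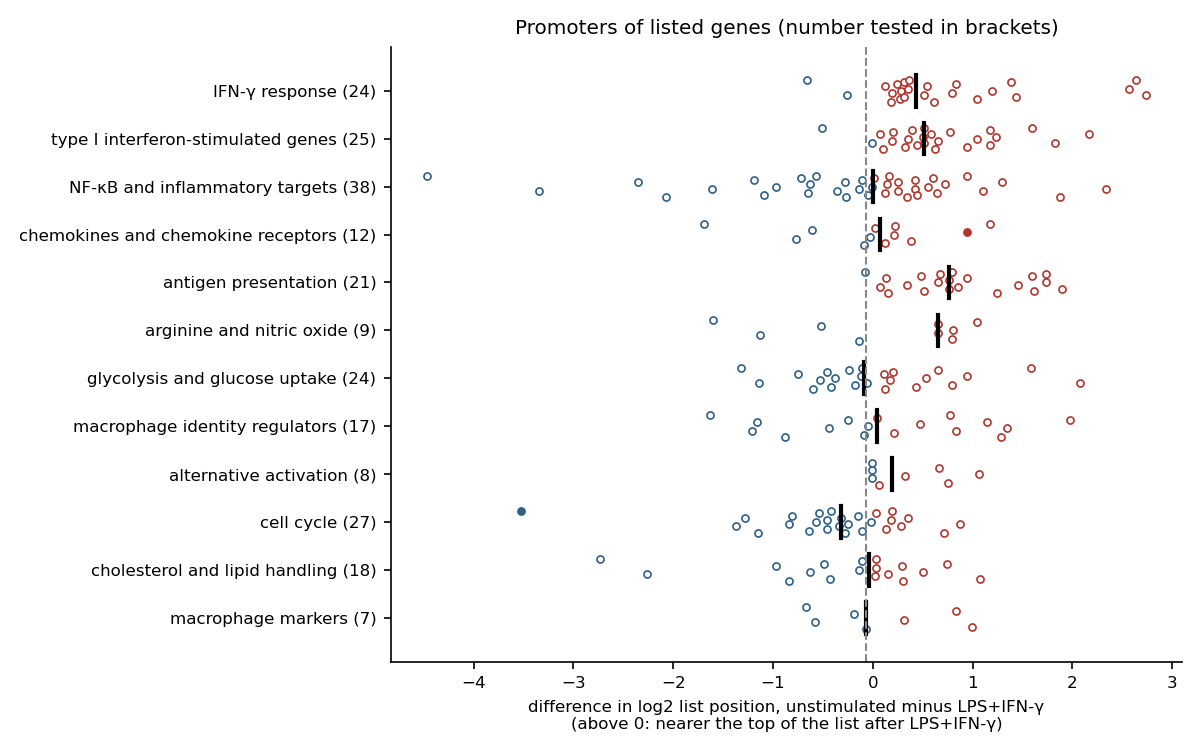
Difference in log2 position, unstimulated minus LPS+IFN-γ, for the tested promoters of each gene list, with the median of the list as a black bar. Each point is a promoter, filled where it was called, and the dashed line is the median of all tested promoters (−0.0664). Points to the right of 0 stood nearer the top after LPS+IFN-γ. The antigen presentation promoters have a median of 0.765 and those of the cell cycle −0.315, and the filled points are Ccl5 and Cdkn1a.

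Genes of known programmes were then read as lists, whose members were chosen with earlier results of these data known. Only promoters held by at least 2 libraries have a position, so medians describe members that passed and are no test. A promoter held by libraries of one group alone had to lie on that side of 0, so the filter fixed part of the counts above 0. The IFN-γ, type I interferon, NF-κB, chemokine, antigen presentation, arginine and alternative activation lists hold such promoters, each on the stimulated side. The IFN-γ list holds 33 annotated genes, of which 24 were tested. None was called, 22 had a difference above 0 beside 44.1% of all promoters tested, and the median was 0.437. Over all 33 genes, whole lists held a promoter peak in 79.8% of gene and library pairs after stimulation and 59.4% before, against 64.4% and 67.2% for all protein-coding genes. Irf7, the interferon regulatory factor that amplifies type I interferon, stood at 8874, 6271, 1601, 12877, 11703 and 9719 after LPS+IFN-γ and at 20001, 18693, 17905, 20001 and 20001 before. Its groups did not overlap (1.44 ± 0.409, adjusted p = 0.128), and without library 3 it was called (1.01, adjusted p = 0.0326). Irf1, an interferon regulatory factor, had a difference of −0.25 ± 0.544, with overlapping groups. Irf8, a lineage factor of macrophages, had 0.29 ± 0.299.

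Of 32 annotated type I interferon-stimulated genes, 25 were tested and none was called, with 23 above 0 and a median of 0.516. The antiviral genes Mx1, Oas1a, Oas2 and Oas3 had differences of 0.51, 0.33, 1.23 and 0.77. Oas2 stood at 3638, 1730, 5668, 11134, 20001 and 10057 after stimulation and at 15483, 14307, 11516, 16913 and 20001 before it, so library 5 had no peak where the other 5 stimulated libraries ranked above every unstimulated one (adjusted p = 0.258). Of 23 antigen presentation genes 21 were tested and none was called, with 20 above 0 and a median of 0.765. H2-Ab1, an MHC class II chain, had 1.24 ± 0.379 and H2-Eb1, another, −0.08 ± 0.333, while the class II promoter of H2-Aa was held by 2 libraries. Tap1 and Psmb9, also in this list, share a peak. H2-DMa, which loads class II molecules, stood between 24 and 1108 in every list of both groups.

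NF-κB and inflammatory genes did not share a direction, with 19 of 38 tested above 0, a median of 0.0046 and no call. Nfkbia, the inhibitor IκBα and itself an NF-κB target, stood at 482, 267, 53, 199 and 358 before and at 601, 1428, 1362, 1050, 150 and 470 after LPS+IFN-γ, with overlapping groups (−1.61 ± 0.871). Nfkbib, Nfkbie and Nfkbiz had 1.3, −0.72 and −0.28. Ptgs2, the inducible cyclooxygenase, was chosen after its values were seen. It stood at 1760, 2079, 1485, 1169, 4875 and 4295 after stimulation and at 10124, 6053, 11496, 7324 and 7558 before, without overlap (1.87 ± 0.438, adjusted p = 0.0589). Of the chemokines and their receptors, 12 of 24 were tested. Of these, 7 lay above 0 and the median was 0.0754. Among the 7, Ccl2, Ccl5, Ccl7 and Cxcl10 were held by stimulated libraries alone, so the filter fixed their sign. Ccl5 was called higher, 1 of 12 beside 0.119% of all promoters, and Ccl2, Ccl3 and Ccl4 had differences of 0.22, 0.03 and 0.38. Cxcl1, Cxcl3 and Cxcl16, named after their values were seen, had −0.77, −0.61 and −1.70, and the groups did not overlap at Cxcl1 (adjusted p = 0.0996). Several classical targets had no promoter peak among the top 20000 of any list, Il6, Il1b, Cxcl9, Acod1 and Gbp2 among them, so that this comparison cannot place them.

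Metabolic and proliferation lists gave these counts. Of 9 tested arginine and nitric oxide genes none was called. Gch1, which makes the cofactor of Nos2, had −1.60 ± 0.484, with every unstimulated library above every stimulated one (adjusted p = 0.157), and the arginine transporter Slc7a2 had 0.65 ± 0.243. Glycolysis had no call among 24 tested and a median of −0.0847, with hexokinases Hk1 and Hk2 at −0.06 and 0.53. Of 27 cell cycle genes, Cdkn1a was called lower, beside 0.5% of all promoters, and the median was −0.315. Groups did not overlap at 3 that stood lower (11.1%, beside 1.63% of all) and 1 that stood higher (3.7%, beside 0.896%). Ccnd1, cyclin D1, stood at 3539 to 5113 before and at 7582 to 16556 after LPS+IFN-γ (−1.28 ± 0.3, adjusted p = 0.0604). Cholesterol and lipid genes had no call among 18 tested and a median of −0.0425. Regulators of macrophage identity had no call among 17 tested and a median of 0.0407. Spi1, which encodes PU.1, stood between 73 and 5284 in every list (0.47 ± 1.11). Alternative activation genes had no call among 8 tested, a median of 0.191, and Mrc1 and Cd163 held by 2 libraries each.

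Of the lists of other cell types, the one called marker promoter was Meis1 of stem and progenitor cells, beside 0.5% of all promoters called lower. It stood at 6896, 7912, 9919, 10637 and 10859 in the unstimulated lists and was held by 2 of 6 stimulated ones, at 11916 and 14948 (−0.94 ± 0.202, adjusted p = 0.0429, and 0.0794 without library 3). Cd34 was held by 3 of 5 unstimulated and 1 of 6 stimulated lists (−0.41 ± 0.16). Over all 5 stem and progenitor markers, a whole list held a promoter peak in 73.3% of gene and library pairs after stimulation and 84% before. Marker lists of other cells had lower shares after stimulation too, with 40% against 64% for B cells, 43.3% against 60% for T cells, 43.3% against 56% for erythroid cells and 53.3% against 72% for fibroblasts, while neutrophil markers had 40% against 34% and all protein-coding genes 64.4% against 67.2%. The part of other cells in the falls was not tested, and fewer cells of a type cannot be told apart here from less acetylation per cell. Of the other markers, 1 neutrophil, 2 T cell and 2 erythroid promoters were tested, no B cell or fibroblast one was, and none was called. Of these, the erythroid factor Klf1 was held by all 11 libraries.

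Away from start sites, 12827 regions were tested, of a median width of 964 bp, and 686 were held by all 11 libraries. A rise was called for 2 (0.0156%) and a fall for 1 (0.0078%), and at an unadjusted p under 0.05 there were 764 and 333. Groups did not overlap at 192 regions that stood higher (1.5%) and 71 that stood lower (0.554%). Of these, 86 were held by all 6 stimulated and no unstimulated library, and 25 by all 5 unstimulated and no stimulated one. Fisher's exact test called none after adjustment, and 335 higher and 163 lower had an unadjusted p under 0.05. Complete separation gave its smallest p of 0.00216, which was 0.25 after adjustment, so no region could be called by it. The median difference over all regions was 0.0407 and 57.7% lay above 0. Without LPS+IFN-γ library 3, limma called 77 higher and 15 lower, the 3 regions above among them, and 102 and 28 segregated by occupancy. The 2 higher calls were lost, with 0 called, when any of LPS+IFN-γ libraries 1, 2 and 4 or any unstimulated library was left out, and the lower call when any library but LPS+IFN-γ 3 was. When peaks were ranked by fold enrichment, no region was called, and with the replicate number as a block none was called either.

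The region that rose in an intron of Aldh2, the mitochondrial aldehyde dehydrogenase, spans chr5:121583948-121587029, 4.3 kb from the nearest start site. It stood at 3222, 4895, 3418, 2469, 10410 and 7605 after LPS+IFN-γ and in none of the unstimulated lists (2.09 ± 0.393, adjusted p = 0.0493). The other that rose, chr7:38124630-38126746, lies in intergenic sequence 17.1 kb upstream of Ccne1, the gene of cyclin E1. It stood at 7537, 8969, 3922, 4657, 4563 and 5879 after stimulation and nowhere before (1.82 ± 0.332, adjusted p = 0.0493). Its neighbour chr7:38119723-38124376, 12.2 kb upstream of the same gene, stood at 5270, 3744, 950, 7370, 8526 and 8289 and likewise nowhere before (2.11 ± 0.458, adjusted p = 0.148). These regions, both called ones among them, entered the test through the stimulated group alone. Their differences could not lie below 0, and their unstimulated values are all the assigned 20001, without spread. The same limit holds for each region below that only stimulated or only unstimulated libraries held. The Ccne1 promoter itself had a difference of 0.19 ± 0.356, with overlapping groups.

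Other leading regions fell short of the adjustment with all 11 libraries and passed it without library 3. The region over an exon of Ubr4, a ubiquitin ligase gene, spans chr4:139440248-139444111. It stood at 1728, 5759, 346, 1066, 4612 and 6711 after LPS+IFN-γ and in 1 of 5 unstimulated lists, at 15002 (3.10 ± 0.626, adjusted p = 0.102, and 2.53e-06 without library 3). Acod1 makes itaconate in activated macrophages. A region 31.5 kb upstream of it, chr14:103014266-103015509, stood at 7780, 6847, 11213, 10702, 8309 and 11054 after stimulation and nowhere before (1.13 ± 0.262, adjusted p = 0.191, and 0.00781 without library 3). Regions near Sdc1, a surface heparan sulfate proteoglycan, and Tpsab1, a mast cell tryptase, had 1.26 ± 0.285 and 1.77 ± 0.4. The remaining 3 lie near Tbl1xr1, Lrp1 and Myl2. Lrp1 is an endocytic receptor of macrophages, and its region lies within an intron.

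The region that fell, chr7:79721169-79722239, covers an exon of Plin1, the perilipin of lipid droplets. It stood at 5187, 8403, 7357, 6549 and 6071 in the unstimulated lists and in 1 of 6 stimulated ones, library 5 at 14668 (−1.52 ± 0.284, adjusted p = 0.0493). Regions 82.4 kb from Lmntd1 and 47.5 kb from Snx10, a gene needed for osteoclast function, were held by all 5 unstimulated and no stimulated library (−1.46 and −1.19, adjusted p = 0.121 and 0.161). The Ttll5 intron region had −1.53 ± 0.327. A region 49.4 kb upstream of Sik1, a salt-inducible kinase gene, had −1.05 ± 0.251 (adjusted p = 0.197). The Sik1 promoter, a call outside the naming rule chosen after its values were seen, fell from 466, 3107, 440, 328 and 141 to 4805, 4360, 7802, 2585, 4345 and 3049 with overlapping groups (−3.09 ± 0.677, adjusted p = 0.0472). A region 14.2 kb upstream of Fosb, an AP-1 subunit and immediate early gene, had −1.28 ± 0.32 (adjusted p = 0.197). The remaining 4 lie near Tram1, Phldb1, Ppara and Ninj2, and the groups overlapped at the one near Ppara.

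**Figure D3:**
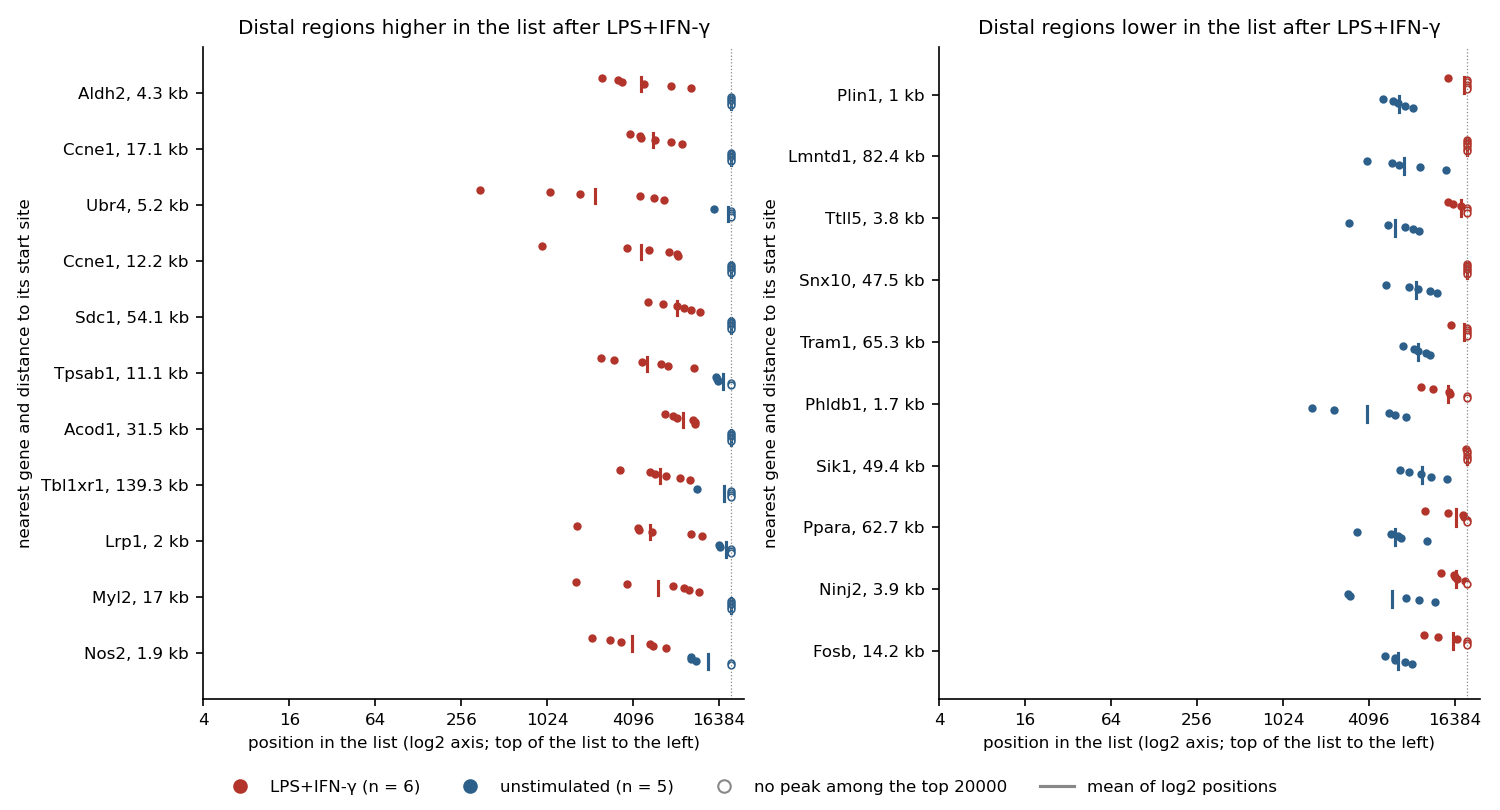
Position in the list (log2 axis, top of the list to the left) of the named distal regions, labelled by the nearest gene and its distance, in 6 LPS+IFN-γ (red) and 5 unstimulated (blue) libraries. Open points had no peak among the top 20000 and bars are means of log2 positions. All 5 blue points are open for Aldh2, both Ccne1 regions, Sdc1, Acod1 and Myl2, and all 6 red points for Lmntd1 and Snx10.

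Regions were also read by their nearest gene, beside 57.7% above 0, 1.5% apart and higher and 0.554% apart and lower over all distal regions. As for promoters, a region held by libraries of one group alone had to lie on that side of 0. Near 16 genes of the IFN-γ list lay 50 regions, of which 44 (88%) had a difference above 0, and 5 (10%) stood higher and 0 lower without overlap between groups. These 5 lie near Nos2, Acod1, Socs3 and, for a pair of them, Socs1. Socs1 and Socs3 encode feedback inhibitors of JAK signalling. The Socs1 region at chr16:10741363-10743137 stood at 6817, 2354, 10960, 8918, 9717 and 9276 after stimulation and in 1 of 5 unstimulated lists, at 15005. Near chemokine genes, 18 of 20 regions lay above 0, and one 4.4 kb from Ccl5 stood at 8001, 8146, 1047, 14003, 10294 and 16765 after stimulation and at 19849 in 1 unstimulated list. Near NF-κB genes, 59 of 80 (73.8%) lay above 0, and 1 region stood higher and 1 lower without overlap (1.25% each). The higher one, 16.9 kb from Nfkbia, stood at 3591 to 10765 against 11015 to 12930, while its promoter had a difference below 0. Regions near regulators of macrophage identity had 49 of 82 (59.8%) above 0, near the share of all regions, with 3 apart and higher (3.66%) and 1 lower (1.22%). A region near Klf4, a factor of monocyte differentiation, stood at 598 to 4043 after and 6231 to 9803 before, and one upstream of Pparg, the lipid-sensing nuclear receptor, was held by all 5 unstimulated and no stimulated library. None of these list regions was called over all 11 libraries except the Ccne1 region 17.1 kb upstream, which the cell cycle list holds. The regions were named here after their values were seen.

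Sequence around the features was compared without a test. Of the 113 promoters that stood higher without overlap, 94 matched a RefSeq promoter of 300 bases, and 13.8% of these held the IRF letters. The share was 1.29% of the 155 matched promoters that stood lower and 6.75% of all 9830 matched promoters. STAT letters were in 9.57%, 3.23% and 6.5%. GC content was 57.7%, 65.5% and 61.5%, so the sets also differ in base composition, and its part was not tested. The higher promoters with IRF letters include Csf3r, the receptor of G-CSF, Edn1, endothelin 1, and Tnfrsf14, named after their values were seen. In distal windows of 300 bases, IRF letters were in 5.21% of the 192 regions that stood higher, 5.63% of the 71 lower and 4.92% of all. AP-1 letters were in 10.4%, 4.23% and 6.89%, and PU.1 letters in 1.04%, 4.23% and 1.81%, or 2, 3 and 232 regions. NF-κB letters were in 1, 1 and 107 regions. The regions that stood higher were intergenic in 48.4% and intronic in 40.1%, against 38.2% and 47.4% of all.

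H3K4me3, a mark of active promoters, was read in 11 libraries of the same design and did not enter the choice of promoters. Limma called 0 of 14004 promoters for H3K4me3, and 317 higher and 387 lower had an unadjusted p under 0.05. At the 15 promoters that rose in H3K27ac the median H3K4me3 difference was 0.643, with 12 above 0. At the 63 that fell it was −0.859, with 55 below 0. Over all 14004 promoters the median was −0.00308, with 6961 above 0 and 7043 below. F10, Ipp and Ccl5, among those above 0, had H3K4me3 peaks in stimulated lists only, so the filter fixed their sign. Any of the 63 with H3K4me3 peaks in unstimulated lists only likewise had to lie below 0. Cyfip1 had −1.98 ± 0.735 for H3K4me3 and Map2k2 −1.74 ± 0.731. Dab2 and Rasgrp1 had 1.63 ± 0.44 and 1.40 ± 0.587. Other promoters had values on the other side of 0. Tmem123, which fell in H3K27ac, had 1.08 ± 0.501, and Nos2 had −1.16 ± 0.523 beside 0.79 for H3K27ac.

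**Figure D4:**
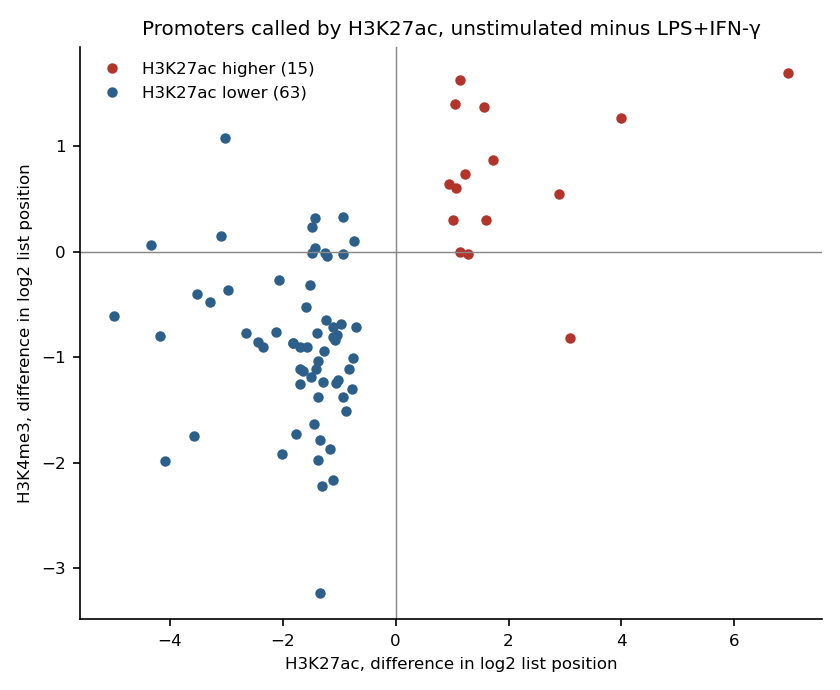
Difference in log2 position after LPS+IFN-γ for H3K4me3 (vertical) against H3K27ac (horizontal) at the promoters called in H3K27ac, higher in red and lower in blue. Each point is a promoter and positive values mean nearer the top of the list after LPS+IFN-γ. Of the 15 called higher, 12 lie above the horizontal line at 0, and of the 63 called lower, 55 lie below it.

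Control BMDMs, from mice without diabetes and stimulated in the same way, gave 6 libraries of each group. Of these 12, 3 went against their labels at the features chosen in diabetic cells. The library labelled control LPS+IFN-γ 5 held 40.1% of the 192 higher and 95.8% of the 71 lower distal regions. The libraries labelled control unstimulated 5 and 6 held 84.9% and 77.1% of the higher and 36.6% and 56.3% of the lower ones. They were kept as labelled, and values without them, a choice made after seeing the data, are given beside. Of the 113 promoters that stood higher in diabetic cells, 92 had a difference above 0 in control cells (99 without the 3 libraries), and of the 206 that stood lower 172 lay below 0 (190 without them). For distal regions these were 180 of 192 (181) and 59 of 71 (67). The 3 libraries were picked at these same features, so the counts without them are no support for agreement. The shares over all promoters and regions in control cells are not given here. The difference between diabetic and control responses was tested directly as an interaction over the 23 libraries. It passed for 0 of 13162 promoters and for 0 of 18599 distal regions. An unadjusted p under 0.05 was reached by 195 and 389 promoters, for a difference further above 0 in diabetic and in control cells, and by 129 and 192 distal regions. Without the 3 libraries it passed for none either, and an unadjusted p under 0.05 was reached by 163 and 232 promoters and by 244 and 103 distal regions, so that the balance for distal regions turned over. A change particular to diabetic cells was thus not detected here, which does not show that the responses are alike. For example, Nr4a2 had −2.11 in control cells and −4.10 without the 3 libraries, beside −4.99 in diabetic cells, and Trp53 had −0.13 and −0.08 beside 1.24 (limma adjusted p of the interaction 0.954 for each).

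**Figure D5:**
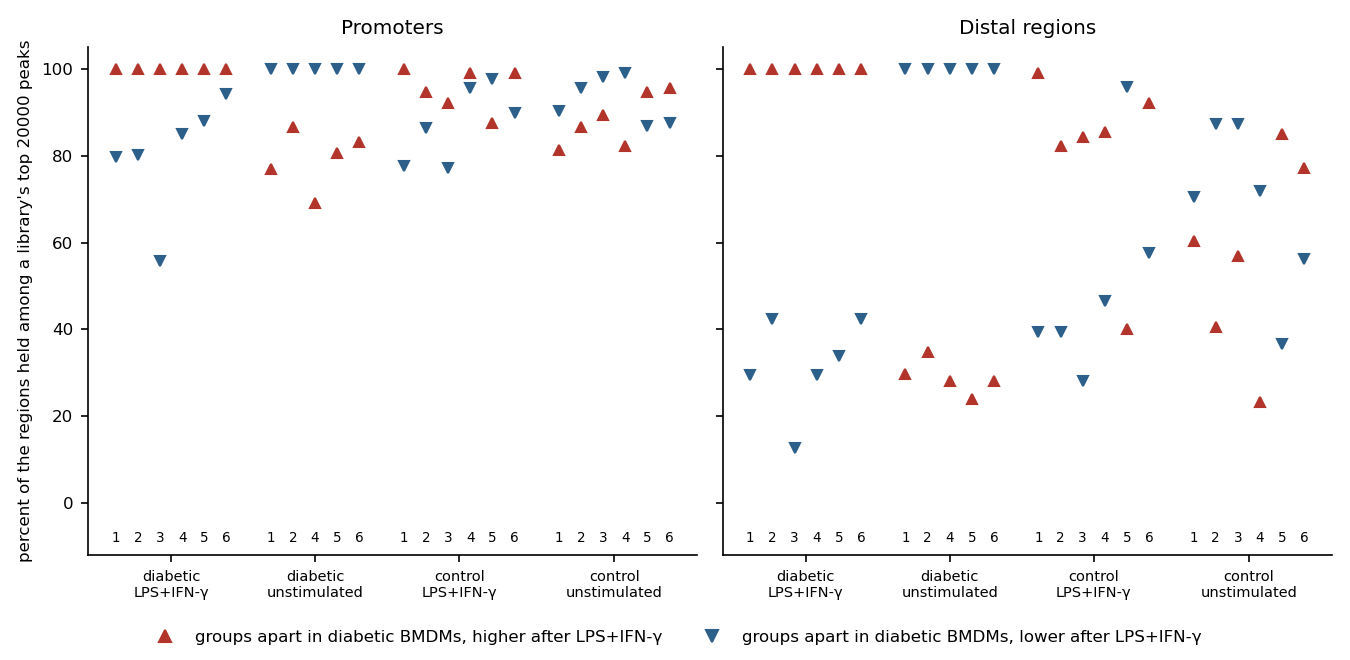
Percent of the promoters (left panel) and distal regions (right panel) that stood higher (red) or lower (blue) without overlap in diabetic BMDMs, held by each of the 23 H3K27ac BMDM libraries among its top 20000 peaks. Each column is a library, with its replicate number below. In the 11 diabetic libraries the separation follows from the choice, for distal regions with 100% of the higher regions held after LPS+IFN-γ and 24% to 34.9% before, and among control libraries LPS+IFN-γ 5 and unstimulated 5 and 6 lie on the other side from their labels.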

How the data were processed

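H3K27ac ChIP-seq peak lists of 11 diabetic BMDM libraries were used, with 12 control H3K27ac and 11 diabetic H3K4me3 lists beside them (34 of 70 lists). The submitters' processing notes name Trim Galore 0.3.3, Bowtie2 2.2.6, Picard, bedtools 2.19.1 and MACS2 2.2.7.1 and mm10, and 0 peaks ran past a GRCm38 chromosome end. In each deposited list the authors give a fold enrichment over background (a ratio), a −log10 p and a −log10 q per summit. Libraries were grouped by label. Read depth is not in the lists, so no counting interval is given, and values were compared only as positions within a list.

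Summits were joined to numbered intervals (1326168 summits gave 1107449 peaks), ranked by −log10 p and cut to 20000. Start sites were from GENCODE M21 on 21 chromosomes (93513 sites). Mean log2 positions were compared by limma 3.58.1 with a trended variance in R 4.3.3, with Benjamini-Hochberg adjustment over all features held by at least 2 libraries and features under 0.05 were called. Occupancy was compared by Fisher's exact test, and single values by two-sided exact permutation. The code was tested on simulated data. Alternatives were list lengths of 10000 and 40000, ranking by fold, linear positions, features held by at least 5 libraries, a 500 bp window, the summit inside the window, 0.5 of a peak's length inside a region, a replicate block, a q of 0.001 for peak number and each library left out. Python 3.11.15 with scipy 1.17.1 and samtools 1.23.1 were used.

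The members and gene lists were chosen with earlier results of these data known. Named were Nos2, the 15 called promoters without overlap with the largest difference per direction, filled by p where fewer, 10 distal regions per direction likewise, and, per gene list, called members and then the first 4 tested. A gene named outside this rule is said to be, and a called promoter and some list members that the rule names are not reported here. The input libraries were not analysed here. Sequences are from GRCm38, and RefSeq for promoters.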

Additional observations from a re-analysis of the deposited data

Results flagged for a closer look

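Values at either end of a group were compared with the rest of their group by Dixon's ratio of gap to range. Of 112 groups tested 15 were singled out. Chance gives about 1 in 20 among untied values. That rate does not hold for groups with several libraries set to position 20001 for want of a peak, and the excess is therefore not read. LPS+IFN-γ library 3 had a promoter share of 55.67% of its top 20000 peaks, below the other 5 stimulated libraries.

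Among positions in the stimulated lists, the Plin1 region stood at 14668 in library 5, the region near Tram1 at 15412 in library 1 and the region near Sik1 at 19500 in library 2, each with no peak in the other 5. Near Nos2, the region 7.4 kb upstream stood at 9729 in library 1, and 3 others stood highest in library 3, at 6906 (18.2 kb downstream), 10992 (30.2 kb upstream) and 2288 (33.8 kb upstream).

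Among the unstimulated lists, the F10 promoter stood at 16842 and the Rasgrp1 promoter at 19817 in library 5. Tnfsf15 stood at 9078 in library 1, where the others stood at 19949 or had no peak, and Mob3c at 916 in library 6, further down than in the others. The region at Ubr4 stood at 15002 and that near Tbl1xr1 at 11473 in library 1, and the region 4.2 kb upstream of Nos2 at 15556 in library 2, each with no peak in the other 4.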

How the results depend on the processing

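Calls depended on list length, ranking and libraries, and the cause was not tested. With 10000 peaks a list, 2 promoters were called higher and 8 lower, and 0 distal regions in either direction. Promoters lost by occupancy were then 20, and distal regions gained and lost by occupancy 13 and 3. With 40000 peaks, 222 distal regions were called higher and 40 lower, 147 were gained by occupancy, and the promoter share differed by −2.51 points, now past the threshold. Ranked by fold enrichment, 0 promoters and 0 distal regions were called in either direction, 6 promoters were lost by occupancy, and 50 and 13 distal regions gained and lost. On linear positions, 21 promoters were called lower, with 134 distal regions higher and 18 lower. The other settings left the counts within 1.5 times. The Cdkn1a promoter stood at 0.391 when the summit had to lie in the window.

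With the replicate number as a block, 11 promoters were called higher (8 of them among the 15), 25 lower (all among the 63), and 0 distal regions in either direction. All 15 and all 63 kept their direction. Same-numbered libraries of both groups had correlations of their deviations from 0.0533 to 0.354 over promoters and from 0.0755 to 0.327 over distal regions. All were above 0, and 3 of 5 correlated best with their own number. These values do not settle whether the numbers pair the samples. The study does not state a pairing, so the main counts are unpaired.

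Leaving out each library in turn gave 6 to 21 promoters called higher and 19 to 70 lower, 0 to 77 distal regions higher and 0 to 15 lower. Lower promoters moved by more than 1.5 times without any of LPS+IFN-γ libraries 1 to 5 or unstimulated libraries 5 and 6. Occupancy gave 7 to 14 promoters gained, 11 to 25 lost, 92 to 128 distal regions gained and 28 to 52 lost. The log2 peak number differed by −0.263 to 0.161 and reversed without LPS+IFN-γ libraries 4 (0.0302) and 5 (0.105) and unstimulated library 2 (0.161). The promoter share differed by −3.77 to −1.9 points. The interaction and the H3K4me3 comparison had 0 calls under every alternative run for them. Depth is unknown, so a feature past position 20000 may still carry the mark.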
